A study of Zea mays with 6 samples.

Results

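Expression in developing ears was examined for 5 maize genes that limit the size of shoot meristems through or beside the CLAVATA pathway: thick tassel dwarf1 (td1, Zm00001d014793), fasciated ear2 (fea2, Zm00001d051012), fasciated ear3 (fea3, Zm00001d040130), compact plant2 (ct2, Zm00001d027886) and fasciated ear4 (fea4, Zm00001d037317). The rule that picks them uses their names and IDs and no measured value, although they were chosen with earlier results of these data known. They are 5 of the 46272 gene IDs counted. Messenger RNA was sequenced from young maize (Zea mays) ears 2 to 3 mm long, from ra3;tpp4 double mutants (3 libraries) and from wild-type (WT) plants of the inbred line B73 (3 libraries). All plants were grown in the field, and the series design calls the replicates biological. The labels' protocols state neither the mutant alleles and inbred line nor whether ears were pooled, so a difference of inbred background cannot be told apart from the mutations. The deposited tables hold IDs only, and the pairing of each ID with its gene name was taken as given.

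As background, the CLAVATA pathway is a feedback loop in which small secreted peptides of the CLE family act through leucine-rich-repeat receptors to restrain WUSCHEL-type homeobox factors, which keep stem cells undifferentiated. Maize mutants that lose this restraint make enlarged, often flattened (fasciated) ears. The product of ra3 (ramosa3) is an enzyme that removes phosphate from trehalose-6-phosphate, and loss of ra3 gives extra branches in the maize ear and tassel. The product of tpp4 is a related enzyme. The comparison of ra3;tpp4 with WT addresses how expression in the developing ear differs when both are mutated.

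None of the 5 genes passed the test for a difference between ra3;tpp4 and WT ears. All 5 passed the filter on low counts, and 0 of 5 were called, where 1.47% of all tested IDs were called (0.918% as higher and 0.549% as lower in the double mutant). A call means an adjusted p under 0.05 in edgeR's quasi-likelihood test, with Benjamini-Hochberg adjustment over 21127 IDs. At an unadjusted p under 0.05 the count was 1 of 5, fea3, where 13.4% of all tested IDs lay under that value. DESeq2 and limma-voom also called 0 of 5, where they called 846 and 341 of the 21127 tested IDs. The median log2 fold change of ra3;tpp4 over WT was -0.08 over the 5 genes and -0.0022 over all tested IDs. The median absolute log2 fold change was 0.12 over the 5 genes and 0.12 over all tested IDs. For 4 of the genes, td1, fea2, fea3 and ct2, the 95% intervals of the fold change ran no lower than 0.677 and no higher than 1.24. The interval of fea4 was far wider, since 1 mutant library lay apart. These intervals come from the same fit and are not adjusted for the number of IDs tested.

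**Figure D1:**
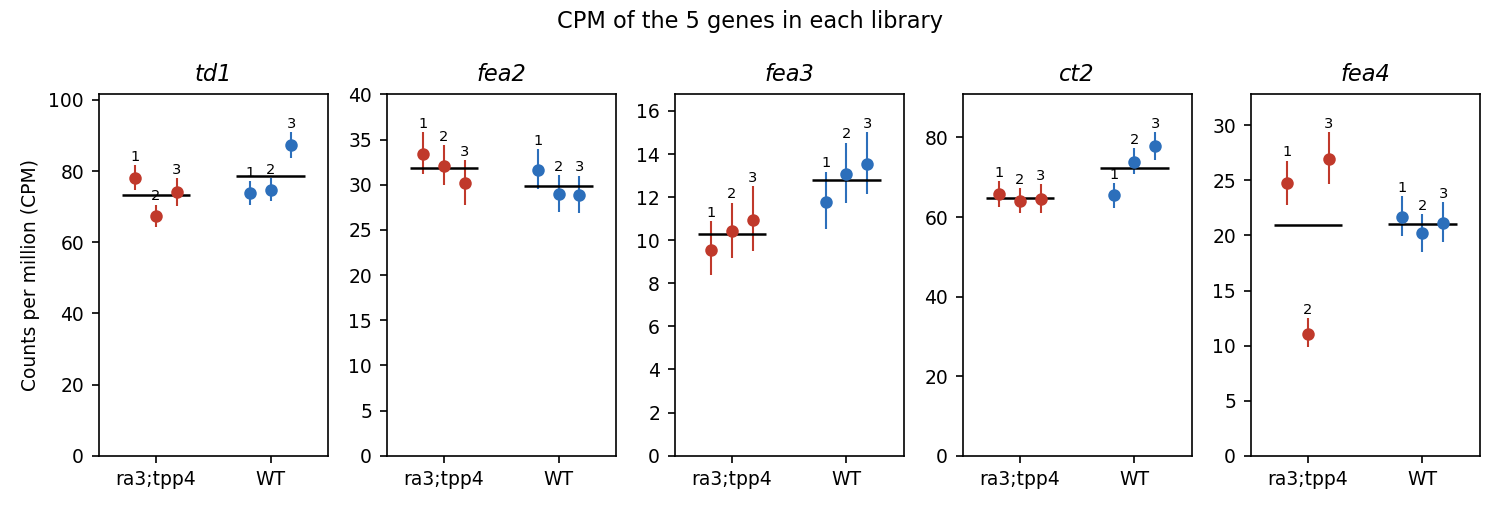
CPM (counts scaled to the library total, linear axes from 0) of the 5 genes in each library, with ra3;tpp4 left of WT. Points are libraries numbered by replicate, vertical bars are exact 95% Poisson intervals for counting error only, and black lines are group means. Of the 5 genes, only fea3 has groups that do not overlap, and fea4 stands at 11.1 CPM in mutant replicate 2 against 24.7 and 27.0 CPM in the other mutant libraries.

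The libraries held 19291332 to 25254164 counts over gene IDs in the mutant and 25815984 to 26752609 in WT. A single member had between 211 and 2252 counts in a library, so counting error was 2.11% to 6.88% of each value. Gene IDs took 75.3% to 77.8% of all records in the ra3;tpp4 libraries and 65.5% to 68.9% in the WT libraries. Alignments that were not unique took 11.1% to 15.3% in the mutant and 19.3% to 22.2% in WT. Because these shares divided by genotype, their part in any difference below cannot be told apart from genotype. The double-mutant libraries were not checked through the mutated genes, nor the tissue through its markers, because the gene table at hand pairs none of those names with an ID in the files. Levels are given as CPM (a count over the library's gene counts, scaled to 1000000), which are not scaled by transcript length, so levels are compared between genotypes and not between genes.

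Among the receptors, td1 encodes a leucine-rich-repeat receptor kinase, the maize counterpart of Arabidopsis CLAVATA1. Its CPM was 78.2, 67.3 and 74.0 in mutant replicates 1, 2 and 3, against 73.7, 74.7 and 87.2 in WT replicates 1, 2 and 3. The groups overlapped, with the highest value in WT replicate 3 and the lowest in mutant replicate 2. The means were 73.2 ± 5.48 CPM in the mutant and 78.6 ± 7.52 CPM in WT (SD, n = 3 each). The log2 fold change was -0.08 (SE 0.09, edgeR adjusted p = 0.764), a fold of 0.947 with a 95% interval of 0.824 to 1.09. An exact permutation test of the mean CPM gave p = 0.5 (two-sided, with 0.1 the smallest p that 3 libraries against 3 allow). Without WT replicate 3 the log2 fold change was 0.0031, and without mutant replicate 2 it was -0.011, so the small difference of td1 rested on these libraries. It was -0.13 without replicate 1 of either genotype.

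The other receptor of the classical pathway, fea2, encodes a leucine-rich-repeat receptor-like protein without a kinase domain, the counterpart of Arabidopsis CLAVATA2. It stood at 33.4, 32.1 and 30.2 CPM in mutant replicates 1, 2 and 3, against 31.7, 29.0 and 28.9 CPM in WT replicates 1, 2 and 3. WT replicate 1 lay between the mutant values, so the groups overlapped. Means were 31.9 ± 1.63 CPM in the mutant and 29.8 ± 1.61 CPM in WT (SD, n = 3 each), and fea2 was the steadiest of the 5 genes between replicates, with a pooled SD of 0.067 on the log2 scale that was as large as or larger than that of only 11.4% of tested IDs. Its log2 fold change was 0.12 (SE 0.09, edgeR adjusted p = 0.595, exact permutation test, two-sided, p = 0.2), a fold of 1.09 with a 95% interval of 0.954 to 1.24. It was positive in all 16 alternative analyses, and none of them called it.

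A separate receptor-like protein is encoded by fea3, which in maize responds to the CLE peptide FCP1 from differentiating leaf primordia and restrains stem cells from below the meristem tip. Its CPM was 9.56, 10.4 and 10.9 in mutant replicates 1, 2 and 3, against 11.8, 13.1 and 13.5 in WT replicates 1, 2 and 3. The highest mutant library was lower than the lowest WT library. The genotypes were separated like this, in either direction, for 19.9% of all tested IDs, and in this direction for 11.4%. The nearest libraries, mutant replicate 3 at 10.9 CPM and WT replicate 1 at 11.8 CPM, had counting intervals that overlapped (9.51 to 12.5 and 10.5 to 13.2 CPM). The means were 10.3 ± 0.696 CPM in the mutant and 12.8 ± 0.900 CPM in WT (SD, n = 3 each). With a log2 fold change of -0.29 (SE 0.12), the fold was 0.817 with a 95% interval of 0.677 to 0.987. This did not pass the test over all IDs (edgeR unadjusted p = 0.0379, adjusted p = 0.332), and the exact permutation test gave the smallest possible p of 0.1. In absolute log2 fold change fea3 stood at percentile 77.9 of all tested IDs. In bulk ears, fewer cells that express a gene and less RNA per cell cannot be told apart.

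Downstream of the receptors, ct2 encodes the alpha subunit of a heterotrimeric G protein, which in maize acts with FEA2 in meristem signalling. It had 65.8, 64.1 and 64.5 CPM in mutant replicates 1, 2 and 3, against 65.4, 73.9 and 77.8 CPM in WT replicates 1, 2 and 3. The mutant libraries lay close together at the low end, and WT replicate 1 fell among them, so the groups overlapped. Means were 64.8 ± 0.853 CPM in the mutant and 72.4 ± 6.34 CPM in WT (SD, n = 3 each), and most of the spread was thus in WT. The fold was 0.909 with a 95% interval of 0.803 to 1.03, from a log2 fold change of -0.14 (SE 0.08, edgeR adjusted p = 0.518, exact permutation test, two-sided, p = 0.2). The log2 fold change was -0.21 without WT replicate 1 and -0.08 without WT replicate 3, and ct2 was called in neither fit (edgeR adjusted p = 0.300 and 0.767).

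**Figure D2:**
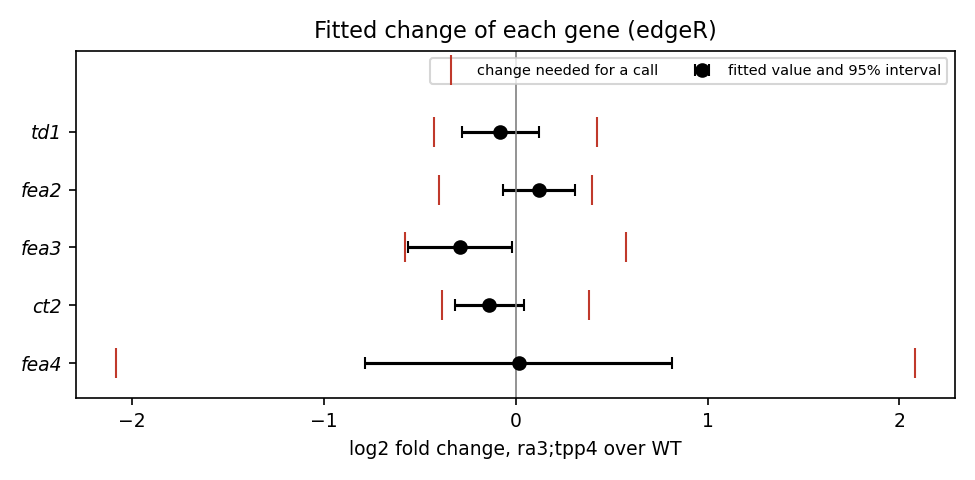
Fitted log2 fold change of ra3;tpp4 over WT for each gene (points) with its 95% interval (bars) from edgeR. Red marks show how large a change would have been called at each gene's standard error. All 5 points lie inside their marks, which stand at 0.38 to 0.58 for 4 genes and at 2.08 for fea4.

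The size of change that this design could call differed between the genes. At each gene's own standard error, and at the largest unadjusted p that was still called (0.000725), a call needed a fold of 1.30 up or 0.768 down for ct2, 1.32 or 0.759 for fea2, and 1.34 or 0.745 for td1. For fea3 it needed 1.49 or 0.671, and the fitted 0.817 lay inside that limit. For fea4 it needed 4.22 or 0.237, so even a 2-fold difference of fea4 would not have been called here.

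The remaining gene, fea4, encodes a bZIP transcription factor, the counterpart of Arabidopsis PERIANTHIA, which is known in maize from the meristem periphery and acts in parallel to the receptors. It had 24.7, 11.1 and 27.0 CPM in mutant replicates 1, 2 and 3, against 21.7, 20.2 and 21.2 CPM in WT replicates 1, 2 and 3. The WT libraries lay within 2 CPM of each other, while the mutant libraries lay on both sides of them, with replicate 2 alone below. In counts, that library held 280 reads of fea4, against 595 and 520 in mutant replicates 1 and 3 and 540 to 562 in WT. The means were almost the same, 20.9 ± 8.59 CPM in the mutant and 21.0 ± 0.776 CPM in WT (SD, n = 3 each), and the coefficients of variation were 41.1% in the mutant and 3.69% in WT. The log2 fold change was 0.02 (SE 0.33, edgeR adjusted p = 0.991, exact permutation test, two-sided, p = 1), a fold of 1.01 with a 95% interval of 0.580 to 1.76. Thus neither a moderate rise nor a moderate fall was detectable for fea4, which does not show that the genotypes are alike.

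Without mutant replicate 2, both remaining mutant libraries lay above all WT libraries. The share of all IDs separated in this way in those libraries was not computed. The log2 fold change of fea4 in that fit was 0.33 (SE 0.11, edgeR adjusted p = 0.145). Without mutant replicate 1 it was -0.13, and without mutant replicate 3 it was -0.21 (edgeR adjusted p = 0.959 and 0.871). The direction of fea4 therefore changed with the mutant libraries that entered the fit, and none of these fits called it. With all mutant libraries kept, the log2 fold change of fea4 was near 0 and its sign also changed with the method. It was -0.13 in limma-voom, -0.012 with total count scaling and -0.069 with the replicate block. Without WT replicate 2 it was -0.0023. The 95% Poisson interval of replicate 2, 9.83 to 12.5 CPM, lay apart from those of replicates 1 and 3, which began at 22.8 and 24.7 CPM, so the gap was larger than counting error.

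Mutant replicate 2 departed from the other mutant libraries in many IDs besides fea4. In 5.44% of tested IDs it lay more than 1 log2 unit from the mean of the other mutant libraries, against 3.09% and 3.66% for mutant replicates 1 and 3 and 1.73% to 2.60% for the WT libraries, each set against the rest of its group. For fea4 its departure was -1.24 on the log2 CPM scale, and 0.776% of tested IDs lay as far down or further in that library. The other 4 genes departed far less: -0.21 for td1, -0.02 for fea2, -0.01 for fea3 and -0.05 for ct2. The departure of td1 was the largest of these, and 16.8% of tested IDs lay as far down or further. What set fea4 low in this library was not tested.

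**Figure D3:**
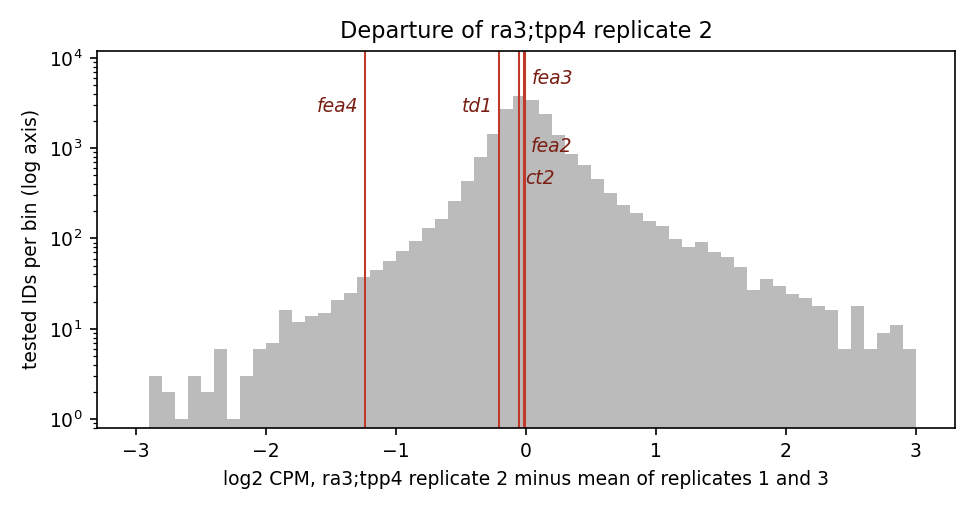
Number of tested IDs (log axis) by the difference in log2 CPM between mutant replicate 2 and the mean of mutant replicates 1 and 3, in bins of 0.1 from -3 to 3, with 57 IDs beyond that range not drawn. Red lines mark the 5 genes: fea4 lies at -1.24, in the lower tail, and the other 4 between -0.21 and -0.01.

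Ratios of counts within a library do not depend on how libraries are scaled. The count of fea2 per count of fea3 was 3.50, 3.08 and 2.76 in mutant replicates 1, 2 and 3, against 2.69, 2.21 and 2.13 in WT replicates 1, 2 and 3. All mutant ratios lay above all WT ratios. In log2 terms the mean ratio was 1.63 in the mutant and 1.22 in WT, a difference of 0.41 that was the largest among the 10 pairs of members. For fea3 per count of ct2 the ratio was 0.145, 0.162 and 0.169 in the mutant, against 0.180, 0.177 and 0.174 in WT, and the groups again did not overlap. The ratio of td1 to fea3 ran from 6.46 to 8.18 in the mutant and from 5.71 to 6.45 in WT, with the nearest libraries almost equal. By contrast, the ratio of td1 to ct2 was 1.05 to 1.19 in the mutant and 1.01 to 1.13 in WT, which overlapped. Every pair whose groups did not overlap held fea3, whose own CPM separated the genotypes, as was so for 19.9% of all tested IDs. These ratios are therefore not separate observations, and the share of all ID pairs separated in this way was not computed. No ratio was tested, because the pairs were looked at with the members' values in view.

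The members also differed in how alike their patterns over the 6 libraries were. The measure was the root mean square difference of log2 CPM after each ID's own mean was taken off, so 0 is an identical pattern. The most alike pair was td1 and ct2 at 0.079, followed by fea3 and ct2 at 0.102. Each pair with fea4 lay between 0.36 and 0.434, and the other pairs between 0.156 and 0.248. These distances share libraries and scaling and are descriptions only.

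Among 18321 other tested IDs whose log2 CPM averaged 1 or more, the most alike to td1 was Zm00001d049440, at 0.024, where the median over those IDs was 0.174. For fea2 it was Zm00001d030618 at 0.017 (median 0.156), and for fea3 it was Zm00001d045518 at 0.019 (median 0.214). The nearest to ct2 was Zm00001d045897 at 0.025 (median 0.170). The nearest to fea4 was Zm00001d006564 at 0.093 (median 0.439). This distance grows with a gene's own spread over the 6 libraries, which was an SD of 0.459 for fea4 and 0.089 to 0.184 for the other 4 genes. None of these 5 IDs was called between ra3;tpp4 and WT (edgeR adjusted p of 0.489 to 0.895), and the files give them no names. They were picked for patterns like those of genes that were not called, so the lack of a call is no separate result.

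**Figure D4:**
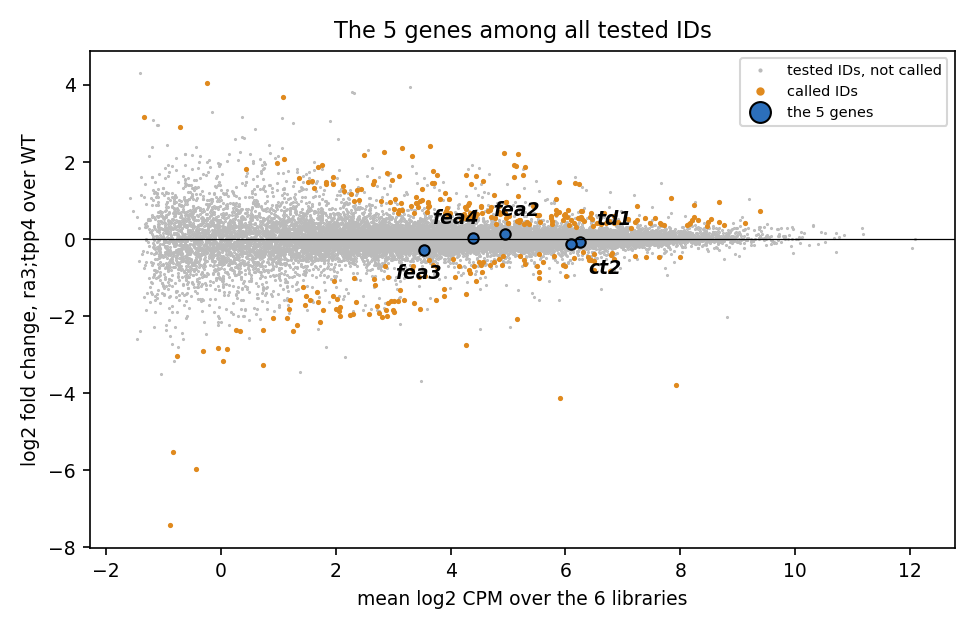
Log2 fold change of ra3;tpp4 over WT against mean log2 CPM over the 6 libraries for all 21127 tested IDs, with the 310 called IDs in orange and the 5 genes in blue. All 5 genes lie within the grey band of IDs that were not called, between -0.29 and 0.12 on the vertical axis.

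**Figure D5:**
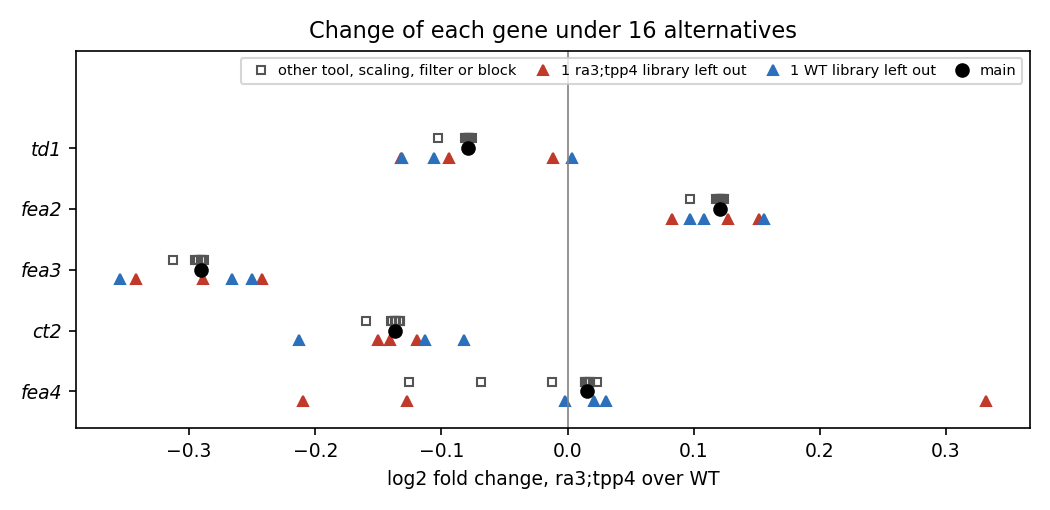
Log2 fold change of ra3;tpp4 over WT for each gene as reported (black) and under 16 alternatives: other tools, scalings, filters or the replicate block (grey squares) and fits that leave out 1 library (red triangles for ra3;tpp4, blue for WT). The values of fea2 stay above 0 and those of fea3 and ct2 below 0, while fea4 ranges from -0.21 to 0.33.

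Across these 16 alternatives 0 of the 5 genes were called in any, where 58 to 846 of all tested IDs were called. The log2 fold change of fea3 stayed between -0.36 and -0.24, that of ct2 between -0.21 and -0.08 and that of fea2 between 0.08 and 0.16, while td1 and fea4 had values on both sides of 0. The alternatives reuse the same 6 libraries and are no separate evidence of direction.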

How the data were processed

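The authors deposited 1 table of raw, whole-number counts per library, with a row per gene ID. Per the submitters' processing notes, reads were handled with Trimmomatic 0.36, HISAT2 2.1.0 and HTSeq on B73 RefGen_v4. Neither those notes nor the labels' protocols give the annotation release or strand setting. Reads of overlapping, antisense or near-identical genes may be shared or lost. The 5 HTSeq summary lines, 22.3% to 34.5% of records per library, stayed out of library sizes and tests.

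CPM are counts over the total of gene IDs, scaled to 1000000. The test was edgeR 4.0.16 (filterByExpr, TMM, robust quasi-likelihood F test, R 4.3.3) over 6 libraries, with Benjamini-Hochberg adjustment over all 21127 IDs tested. The fit was run on simulated counts with the same dispersion for all IDs and with changes larger than those fitted for the 5 genes. That run does not show how the test behaves for changes as small as theirs or with a library that lies apart. Standard errors were derived from each log2 fold change and its F value. The named IDs are the 5 members and, for each, the ID nearest in pattern (log2 CPM with a prior count of 2). Alternatives used DESeq2 1.42.0, limma-voom (limma 3.58.1), other scalings and filters, a replicate block and leaving out each library. Of 20 other pathway symbols and 13 tissue markers listed, 0 could be paired with an ID through the RefSeq table, so none was analysed here. No 2 replicates agreed within sampling noise (chi-square per degree of freedom of 5.33 or more). Members and lists were chosen with earlier results of these data known.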

Additional observations from a re-analysis of the deposited data

How the results depend on the processing

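Of the 5 genes, fea2, fea3 and ct2 kept their direction in all 16 alternatives, and 0 of the 5 were called in any of them (lowest adjusted p 0.145, for fea4 without mutant replicate 2). The log2 fold change of fea4, 0.02 as reported, was -0.13 in limma-voom, -0.012 with total count scaling and -0.069 with the replicate block. Leaving out 1 library at a time gave -0.21 to 0.33, with values below 0 of -0.13 and -0.21 without mutant replicates 1 and 3 and of -0.0023 without WT replicate 2. That of td1, -0.08 as reported, ran from -0.13 to 0.0031 with 1 library left out, the highest value being without WT replicate 3. The cause was not tested. The count of called IDs, 310 as reported, was 846 in DESeq2 and 511 with no filter on low counts, and 58 to 471 with 1 library left out. Libraries that share a replicate number were not treated as pairs: the correlation across IDs of their deviations from their genotype's mean was -0.181 and -0.123 for numbers 1 and 2 and 0.154 for number 3, whose libraries correlated best with each other. A fit with the replicate block called 290 IDs, again 0 of the 5 genes, and fea3 was at -0.29 (edgeR adjusted p = 0.397). Scaling moved the median of all IDs by less than 0.1 on the log2 scale. Counting error was 3.49% to 4.15% of each fea2 value and 5.35% to 6.88% of each fea3 value. The coefficient of variation that edgeR fitted beyond counting error was larger, 8.39% for fea2 and 11.3% for fea3. That fitted value draws on other IDs and is not each gene's own spread. The observed coefficient of variation of CPM, counting error included, was 5.12% in the mutant and 5.38% in WT for fea2. For fea3 it was 6.75% in the mutant and 7.04% in WT. Counting error and the fitted variation limit what can be said of fea2 and fea3, as the spread of the mutant libraries does for fea4.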
